A study of Rattus norvegicus with 6 samples.

Results

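The AFAP (actin filament associated protein) family was followed in vascular smooth muscle (VSM) cells of the soleus feed artery (SFA), the vessel that brings blood to the soleus muscle of the hindlimb. The family has 3 genes, Afap1, Afap1l1 and Afap1l2, and 3 of the 14475 genes in the count table carried these symbols. Cells were grown in serum-containing medium from male Fischer 344 rats, 3 young (4 months) and 3 old (24 months), with no genetic change or treatment named for either group. Polyadenylated RNA of cultured cells was sequenced as 3 replicate libraries per age, and which rat or culture gave which library is not stated in the labels. Cultured cells may differ from those of the vessel they came from. Counts on genes ranged from 44235674 to 59700887 a library. The genes were chosen by symbol, but the family was selected on a measured value, because Afap1l2 was the single gene that the quasi-likelihood test of edgeR called between the age groups. Its difference is therefore given as a description without a test. Afap1 and Afap1l1 entered as paralogs by name and not by their values, and their rows of the fit over all genes are given with the test.

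AFAP proteins are adaptors that join actin filaments to kinase signaling. The founding member, encoded by Afap1, binds and cross-links actin filaments, is bound by the tyrosine kinase SRC and by protein kinase C, and can activate SRC. The protein of Afap1l1 has been placed at invadosomes, actin-rich adhesions that degrade matrix, where it interacts with cortactin. The protein of Afap1l2, also known as XB130, is a substrate of SRC and related tyrosine kinases and, once phosphorylated, binds the regulatory subunit of phosphoinositide 3-kinase (PI3K). In a contractile cell these adaptors therefore stand between the actin cytoskeleton and the signals that reshape it. The question asked of these libraries was whether the lower RNA of Afap1l2 in old VSM cells was shared by its paralogs or offset by them.

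The promoters of Afap1l2 and Afap1 are shown because the level of Afap1l2 differed widely between the age groups while that of Afap1 did not pass the test. Each is the stretch of 250 bases before an annotated transcription start in RefSeq on GRCr8, a newer assembly than the one used for counting, and 3 of 3 members matched an entry there by symbol. Afap1l2 lies on chromosome 1 from 265969368 to 266065951 and its promoter at chr1:266065944-266066193 (minus strand). Afap1 lies on chromosome 14 from 78967961 to 79081032 and its promoter at chr14:79080940-79081189 (minus strand). Both windows overlap the span of their gene, so each gene also has an annotated start further upstream. RefSeq lists 10 transcripts for Afap1l2 and 9 for Afap1, and windows at their other starts were not read. Capitals mark GC boxes (GGGCGG) and CCAAT boxes (CCAAT) on either strand.
Afap1l2: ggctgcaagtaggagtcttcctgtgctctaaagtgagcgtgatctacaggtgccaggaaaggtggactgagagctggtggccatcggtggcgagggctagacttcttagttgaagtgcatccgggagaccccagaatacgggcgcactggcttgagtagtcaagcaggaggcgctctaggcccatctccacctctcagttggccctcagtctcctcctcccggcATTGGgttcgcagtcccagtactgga
Afap1: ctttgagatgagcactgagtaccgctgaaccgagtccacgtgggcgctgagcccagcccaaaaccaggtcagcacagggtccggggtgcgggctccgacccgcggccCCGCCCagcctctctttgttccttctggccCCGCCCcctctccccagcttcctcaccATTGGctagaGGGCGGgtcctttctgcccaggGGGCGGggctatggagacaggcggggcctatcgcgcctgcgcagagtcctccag
The window of Afap1 held 4 GC boxes and 1 CCAAT box, and its GC content was 68%. That of Afap1l2 held 0 GC boxes and 1 CCAAT box, 26 bases before the start, and its GC content was 58.4%. Afap1l1, on chromosome 18, had 2 GC boxes, which overlap each other, 0 CCAAT boxes and a GC content of 67.6%. Among 33469 promoter windows of the same length, 30.5% held a GC box and 34.0% a CCAAT box, and the median GC content was 51.2%. The TATA box (TATAAA, in 12.9% of all windows), the TEAD site (CATTCC, 12.1%), the AP-1 site (TGANTCA, 6.34%) and the CArG box bound by serum response factor (1.5%) were also searched on both strands and matched 0 of the 3 family promoters. These matches describe the letters in the windows and say nothing about which factors act there.

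Afap1l2 (ENSRNOG00000017164) was read in every library, and its RNA was far lower in old VSM cells. Young replicates 1, 2 and 3 had 2465, 6061 and 3788 counts, and old replicates 1, 2 and 3 had 275, 274 and 293 counts. On the CPM scale, which gives counts per 1000000 counts of the normalized library size, these were 54.6, 101 and 77.1 CPM in young and 5.53, 5.27 and 5.47 CPM in old. The groups were far apart, since the lowest young library was well above the highest old one, and the spread lay almost entirely among the young libraries. The young libraries averaged 77.5 ± 23.1 CPM and the old ones 5.42 ± 0.134 CPM (SD, n = 3 each). The mean was 14.3 times higher in young, and toward old it dropped by 93.0%. The fitted log2 fold change was -3.84 with a standard error of 0.24, taken here as the size of the difference that chose the family. Among the 12257 genes with an average of at least 1 CPM, it stood at position 27 from the lowest log2 fold change.

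The old libraries matched each other closely in Afap1l2. Their coefficient of variation was 2.47%, against 29.8% for the young libraries. Among the 1362 genes whose old mean was within 1.5 times that of Afap1l2, and whose average was at least 1 CPM, the median coefficient of variation in old was 21.0%, and 1.17% had a lower one. A small spread within groups favors a call in the edgeR test that chose the family, so this ranking is a description. Random sampling of reads alone would spread counts of this size, so 3 values this close do not measure the spread between old libraries. The low coefficient is not read as a trait of old cells. All 3 old libraries shared the low level, and each still held at least 274 counts of the gene. In RNA of whole cultures, fewer cells that express a gene and less RNA per cell cannot be told apart.

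Afap1 (ENSRNOG00000060665), the actin cross-linking member, overlapped between the age groups. Its level was 238, 228 and 337 CPM in young replicates 1, 2 and 3 and 230.5, 149.8 and 233 CPM in old replicates 1, 2 and 3. Of these 6 libraries, 4 lay close together, whereas young replicate 3 stood above them and old replicate 2 below. The young libraries averaged 267 ± 60.4 CPM and the old ones 205 ± 47.5 CPM (SD, n = 3 each). On the log2 scale Afap1 differed by -0.39 with a standard error of 0.23 and a 95% interval from -0.94 to 0.17, and it did not pass the test (adjusted p = 0.351 from edgeR). It was -0.19 without young replicate 3 and -0.21 without old replicate 2. An exact permutation test (two-sided) of the log2 values gave p = 0.3, where 3 libraries against 3 cannot give less than 0.1.

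Afap1l1 (ENSRNOG00000019403), the invadosome-associated member, was barely detected. Its counts were 46, 30 and 36 in young replicates 1, 2 and 3 and 66, 60 and 28 in old replicates 1, 2 and 3. These correspond to 1.02, 0.499 and 0.733 CPM in young and 1.33, 1.15 and 0.522 CPM in old. Old replicate 3 was within the young range, so the groups overlapped. Young libraries averaged 0.750 ± 0.261 CPM and old ones 1.00 ± 0.423 CPM (SD, n = 3 each). On the log2 scale Afap1l1 differed by 0.42 (SE 0.46, 95% interval -0.68 to 1.52, adjusted p = 0.597 from edgeR), and the exact permutation test (two-sided) gave p = 0.5. Counts were few, and the coefficient of variation was 34.7% in young and 42.3% in old. With both, the interval was wide and held changes in either direction, so neither a rise nor a fall was shown.

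**Figure D1:**
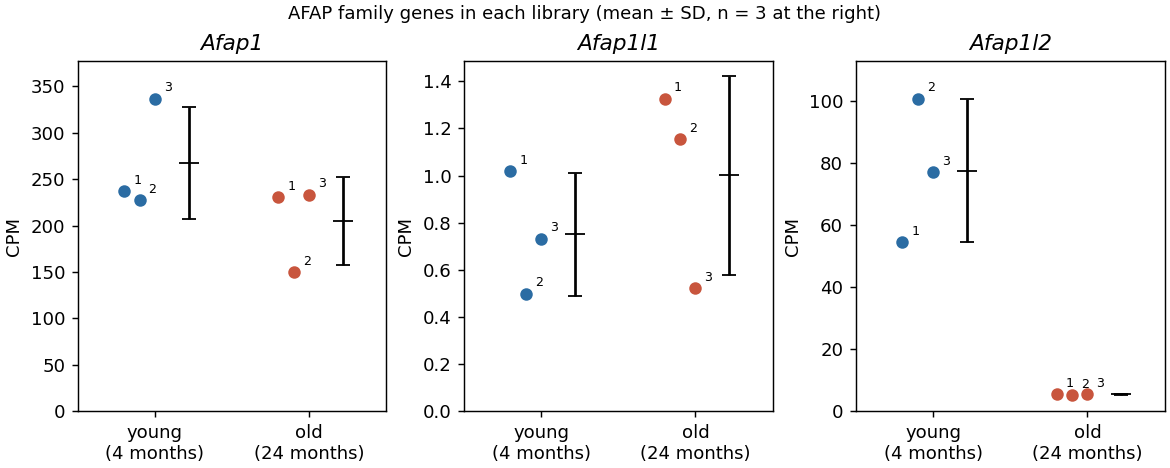
Level of each AFAP gene in CPM (linear axes from 0, a different range in each panel) in the 3 young and 3 old libraries, with the replicate number beside each point and the mean ± SD to its right. The old points of Afap1l2 lie together at 5.27 to 5.53 CPM below young points of 54.6 to 101 CPM, while the groups of Afap1 and of Afap1l1 overlap.

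Calls over the whole table give the background. A gene was called where its adjusted p was under 0.05 and it differed by 1 or more on the log2 scale. By this rule edgeR called 1 of 14475 genes lower in old (0.00691%) and 0 genes higher (0%), and 732 genes in all without old replicate 1. At an unadjusted p under 0.05 it gave 11.5% of genes lower and 11.2% higher. DESeq2 called 3.38% of the genes with an adjusted p lower and 2.30% higher, and limma-voom called 0 genes (3347 at an unadjusted p under 0.05). The old libraries lay entirely below the young ones for 14.7% of genes and entirely above for 14.5%. In the family, the groups of 1 of the 3 members did not overlap, and that member was chosen for its difference. Neither paralog was called by edgeR, DESeq2 or limma-voom, and neither had an unadjusted p under 0.05 in edgeR. The DESeq2 adjusted p was 0.338 for Afap1 and 0.660 for Afap1l1.

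**Figure D2:**
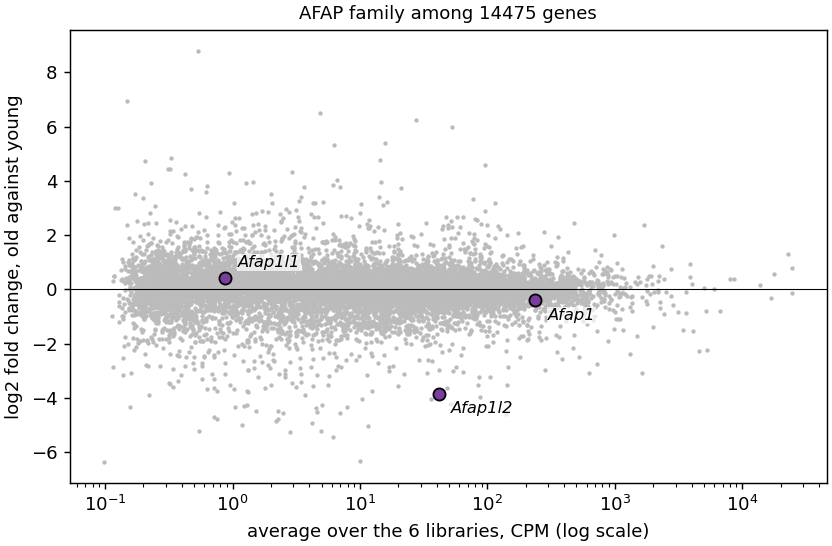
Average CPM over the 6 libraries (log axis) against the log2 fold change of old over young for 14475 genes (gray points), with the AFAP genes in purple. Afap1l2 lies at -3.84, at the lower edge of the cloud, while Afap1 at -0.39 and Afap1l1 at 0.42 lie within it.

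The reads of the family were then added up in each library, to see whether the paralogs made up for the lower Afap1l2. Counts were not divided by transcript length, so the sum says how many reads the family drew and not how many molecules. Young replicates 1, 2 and 3 had 293, 329 and 415 CPM for the 3 genes together, and old replicates 1, 2 and 3 had 237, 156 and 239 CPM. No old library reached the lowest young one. The mean of the sum was 346 ± 62.4 CPM for young and 211 ± 47.4 CPM for old (SD, n = 3 each), a log2 ratio of -0.71. No test is given, because the family was picked on the values of Afap1l2. Old minus young, the sum differed by -135 CPM, to which Afap1l2 gave -72.1 CPM and Afap1 -62.9 CPM, although the difference of Afap1 on its own did not pass the test.

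The make-up of the family's reads rests on the same values of Afap1l2 that chose the family, and it is given as a description. Afap1l2 gave 18.6%, 30.6% and 18.6% of the reads of the family in young replicates 1, 2 and 3 and 2.33%, 3.38% and 2.28% in old replicates 1, 2 and 3. Afap1 gave 69.2% to 81.2% of them in young and 95.9% to 97.5% in old. These are shares of reads, which also depend on the length of each transcript, so they are compared between libraries and not between genes. The share of Afap1l1 was between 0.152% and 0.739% in all libraries. Set against each other within a library, which needs no scaling between libraries, there were 23.0, 44.3 and 22.9 counts of Afap1l2 per 100 counts of Afap1 in young and 2.40, 3.52 and 2.34 in old. Old replicate 2, with the lowest Afap1, had the highest of the old ratios, and the young and old ratios did not overlap. Afap1 differed far less than Afap1l2, so these shares and ratios restate the difference that chose the family.

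**Figure D3:**
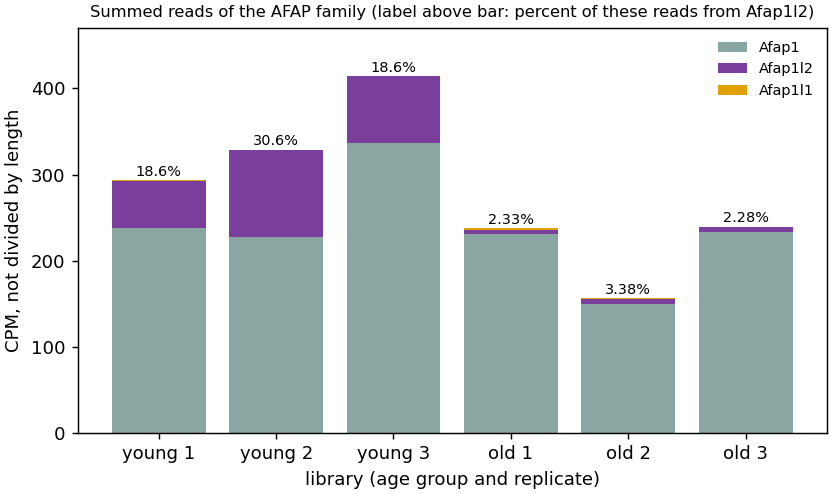
Summed CPM of the AFAP genes in each library (bars from 0, stacked by gene, not divided by length), with the percent of these reads from Afap1l2 above each bar. The Afap1l2 portion is 18.6% to 30.6% in young and 2.28% to 3.38% in old, and the Afap1 part of the bars, in CPM, overlaps between the groups.

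For the reads of Afap1 alone to replace those of Afap1l2 that were missing in old, Afap1 would have had to be 27.0% higher in old than in young, or 0.34 on the log2 scale. That amount is computed from the mean levels, of which Afap1l2's chose the family, and it carries no error of its own, although young Afap1l2 ranged from 54.6 to 101 CPM. It is set beside the interval as a description and not as a test of replacement. The 95% interval of its log2 fold change ended at 0.17, below that value. Across 14 settings with an interval, its upper end lay between 0.01 and 0.36, and it passed 0.34 in 1 of them, when young replicate 3 was left out. The 0.34 was computed with all libraries and not again for each setting. In settings that leave out a library, the interval and the 0.34 therefore rest on unlike sets of libraries. The lower end lay below 0 in all 14 and the upper end above 0 in all 14, so a lower Afap1 in old was not shown either. For Afap1l1 the same replacement would need a log2 fold change of 6.60, also computed once with all libraries. The upper ends of its intervals lay between 1.44 and 2.00. Protein was not measured for any member.

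**Figure D4:**
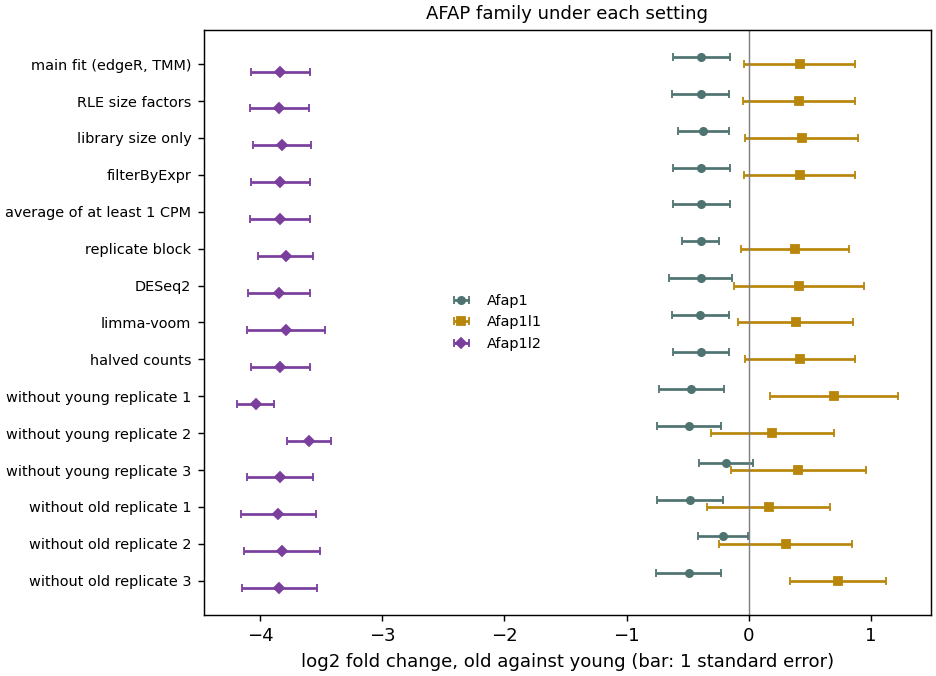
Log2 fold change of old over young for each AFAP gene (points) with 1 standard error (bars) in the main fit and 14 alternatives (Afap1l1 was removed by the filter at an average of 1 CPM). Afap1l2 stays between -4.04 and -3.60, Afap1 between -0.49 and -0.19 and Afap1l1 between 0.16 and 0.73.

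In the RefSeq order on GRCr8, Ablim1 adjoins Afap1l2 and Ablim3 adjoins Afap1l1. Both encode actin-binding LIM proteins, which tie actin to other proteins through LIM domains. These neighbors were looked up after the values of the AFAP genes were known. Ablim1 had 12.0, 25.5 and 51.5 CPM in young and 20.1, 13.1 and 15.6 CPM in old, so that its groups overlapped (log2 fold change -0.87, SE 0.50, adjusted p = 0.336 from edgeR). Ablim3 had between 12 and 39 counts in every library and differed by 0.21 on the log2 scale (SE 0.54, adjusted p = 0.837 from edgeR). Taking 2 protein-coding genes on each side of every member gave 12 neighbors, of which 9 were in the table. None of the 9 was called by edgeR or DESeq2 and 2 had an unadjusted p under 0.05 in edgeR, Sorcs2 and Sh3tc2, both with a higher mean in old. Of all genes, 11.5% were lower and 11.2% higher at that p. Beyond Ablim1 lies Fhip2a, with 33.0 ± 0.869 CPM for young and 32.8 ± 1.76 CPM for old (SD, n = 3 each).

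Partners of the AFAP proteins were read from 5 lists with 75 genes, of which 67 were in the table. In edgeR 0 of the 67 were called (7 without old replicate 1), and in DESeq2 7 were, 4 lower and 3 higher. Of all genes with an adjusted p, DESeq2 called 3.38% lower and 2.30% higher. The first list held SRC family kinases and the adhesion proteins they phosphorylate, with 14 of 14 genes in the table. Here 13 had a lower and 1 a higher level in old, the median difference was -0.21 on the log2 scale beside 0.02 over all genes, and at an unadjusted p under 0.05 there were 5 lower (35.7% against 11.5% of all genes) and 1 higher. DESeq2 called 1, upward. Among the kinases of the SRC family the differences had both signs. Fyn had 38.2, 38.8 and 41.1 CPM in young and 69.0, 89.0 and 87.0 CPM in old, with every old library above every young one (log2 fold change 1.05, SE 0.12, adjusted p = 0.0531 from edgeR and 4.55e-10 from DESeq2). Yes1 had 113 ± 32.8 CPM in young and 64.7 ± 8.09 CPM in old (SD, n = 3 each, log2 fold change -0.80, adjusted p = 0.123 from edgeR). Lyn had 13.6 ± 2.71 and 7.74 ± 1.90 CPM (SD, n = 3 each, log2 fold change -0.81, adjusted p = 0.129 from edgeR). Src itself had 94.2 ± 3.81 and 81.8 ± 0.918 CPM (SD, n = 3 each, log2 fold change -0.20, adjusted p = 0.200 from edgeR). Bcar1, which encodes the SRC substrate and adhesion scaffold p130Cas, had 140.1 ± 11.5 CPM in young and 82.3 ± 11.8 CPM in old without overlap (SD, n = 3 each, log2 fold change -0.77, adjusted p = 0.0636 from edgeR). Yes1, Lyn and Bcar1 had a DESeq2 adjusted p of 0.0167, 0.0234 and 7.71e-05, and were not called because they differed by less than 1 on the log2 scale.

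No isoform of protein kinase C, the kinase that binds AFAP1, passed the test. Of 9 listed genes, 7 were in the table, 5 with a lower and 2 with a higher level in old, between -0.41 and 0.31 on the log2 scale with a median of -0.15. None had an unadjusted p under 0.05 in edgeR, none was called by DESeq2, and the groups of all 7 overlapped. Prkca, a calcium-dependent isoform, had 39.9 ± 3.88 CPM in young and 34.0 ± 12.0 CPM in old (SD, n = 3 each). Prkcd had 43.8 ± 4.19 and 39.4 ± 2.43 CPM, Prkci 75.0 ± 11.7 and 81.9 ± 10.5 CPM, and Prkch 3.03 ± 0.510 and 3.76 ± 1.84 CPM (SD, n = 3 each).

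The list of PI3K and AKT genes, the pathway that phosphorylated XB130 feeds, had 15 of 16 genes in the table. In old 9 had a lower and 6 a higher level, and the median was -0.08 on the log2 scale. At an unadjusted p under 0.05 in edgeR there were 1 lower (6.67% against 11.5% of all genes) and 2 higher (11.2% of all genes were higher). DESeq2 called 0. Pik3cd, a catalytic subunit, had 56.0, 62.5 and 33.0 CPM in young and 33.5, 28.0 and 15.5 CPM in old, with young replicate 3 just below old replicate 1 (log2 fold change -0.98, SE 0.35, adjusted p = 0.178 from edgeR). The genes of the regulatory subunits, which contain the SH2 domains that bind phosphorylated tyrosines, differed in sign. Pik3r2 had 41.7 ± 1.76 CPM in young and 59.8 ± 14.9 CPM in old (log2 fold change 0.52, adjusted p = 0.180 from edgeR, SD, n = 3 each), and Pik3r3 had 70.2 ± 12.5 and 48.8 ± 13.4 CPM (log2 fold change -0.52, adjusted p = 0.247 from edgeR, SD, n = 3 each). Irs1, an insulin receptor substrate, had 42.96 CPM in old replicate 2, within the young range of 38.4 to 60.9 CPM, and 92.9 and 108 CPM in the other old libraries.

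Genes of podosomes and invadopodia were in the table for 14 of 16, 7 with a lower and 7 with a higher level in old and a median of 0.03 on the log2 scale. At an unadjusted p under 0.05 in edgeR there were 1 lower (7.14% against 11.5% of all genes) and 2 higher (11.2% of all genes were higher). DESeq2 called 1, upward. Sh3pxd2b, which encodes the podosome scaffold TKS4, had 39.2, 31.3 and 38.0 CPM in young and 68.8, 74.7 and 62.3 CPM in old, with all old libraries above the young ones (log2 fold change 0.92, SE 0.12, adjusted p = 0.0531 from edgeR and 2.10e-07 from DESeq2, under the fold needed for a call). Its relative Sh3pxd2a, which encodes TKS5, had 113 ± 21.0 CPM in young and 101 ± 29.9 CPM in old (SD, n = 3 each, log2 fold change -0.16, adjusted p = 0.709 from edgeR). Mmp14, the membrane-anchored matrix protease, had 414 to 499.6 CPM in young and 628, 933 and 1724 CPM in old (log2 fold change 1.27, SE 0.36, adjusted p = 0.130 from edgeR and 0.00886 from DESeq2). Cttn, the gene of cortactin, had 363 ± 28.9 CPM in young and 353 ± 50.3 CPM in old (SD, n = 3 each, log2 fold change -0.04, adjusted p = 0.879 from edgeR). Asap1 was at 130 ± 20.2 and 178 ± 37.8 CPM, and the adaptor gene Nck2 at 15.9 ± 3.69 and 10.3 ± 2.10 CPM (SD, n = 3 each).

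Genes listed as other cross-linkers of actin filaments were mostly lower in old. Of 22 listed genes, 19 were in the table, 14 with a lower and 5 with a higher level, and the median was -0.56 on the log2 scale. At an unadjusted p under 0.05 there were 9 lower (47.4% against 11.5% of all genes) and 1 higher, and DESeq2 called 4 lower and 1 higher. The old libraries lay below the young ones for 8 of the 19 (42.1% against 14.7% of all genes) and above them for 1. Actn1, which encodes an α-actinin of stress fibers and adhesions, had 1266, 1440 and 1607 CPM in young and 730, 444 and 407 CPM in old (log2 fold change -1.45, SE 0.26, adjusted p = 0.0644 from edgeR and 4.40e-06 from DESeq2). Anln, the gene of the contractile ring protein anillin, had 110 ± 29.1 and 38.0 ± 31.9 CPM (SD, n = 3 each, log2 fold change -1.53, adjusted p = 0.199 from edgeR and 0.0446 from DESeq2). Lcp1, the gene of the bundling protein L-plastin, had 3.81 CPM in young replicate 1 and 3.38 CPM in old replicate 1, so that these libraries nearly met (log2 fold change -2.53, SE 0.82, adjusted p = 0.161 from edgeR and 0.0113 from DESeq2). Limch1, also on this list, went the other way, with 32.4, 7.75 and 7.08 CPM in young and 110, 36.7 and 154 CPM in old (log2 fold change 2.68, SE 0.79, adjusted p = 0.137 from edgeR and 0.00207 from DESeq2). The lowest log2 fold change on this list was that of Lcp1. It is not ranked against that of Afap1l2, which was chosen for its difference.

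**Figure D5:**
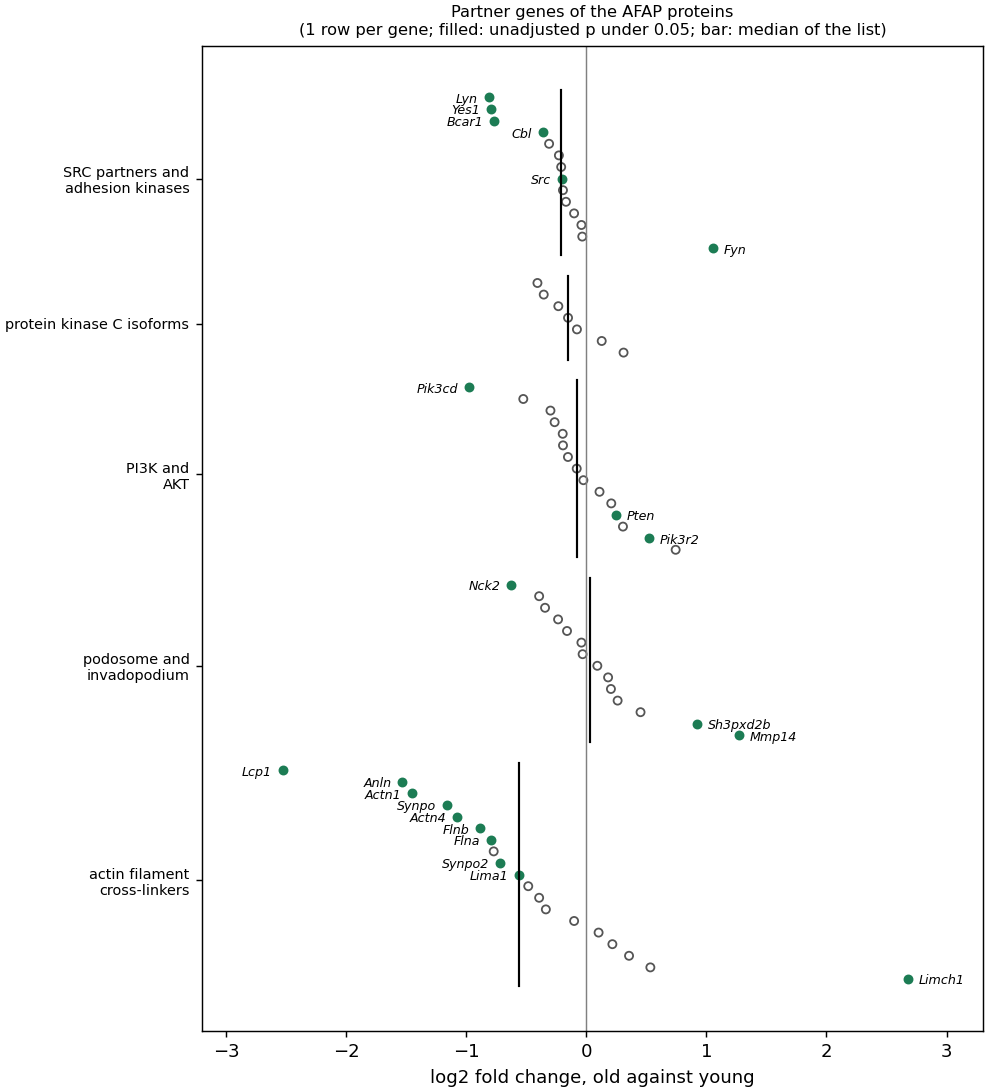
Log2 fold change of old over young for the genes of each partner list (1 row per gene, filled where the unadjusted p of edgeR was under 0.05, vertical bar at the median of the list). Fyn at 1.05 stands apart from Lyn, Yes1 and Bcar1 near -0.8, and the median of the cross-linkers is -0.56.

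The pattern of each member over the 6 libraries was compared with those of the other genes that had a symbol and an average of at least 1 CPM, by Pearson's r of log2 CPM. This is a description over 6 libraries that share the age difference, and with 11435 genes compared, high values occur. For Afap1l2 the 5 highest included Plekhg3 (r = 0.996), Vma21 (0.995), Cttnbp2nl (0.995) and Usp39 (0.992). These 4 were lower in old, with log2 fold changes from -0.68 to -0.20. That of Afap1l2 was far larger in size, but it chose the family. Plekhg3 had 74.0 ± 4.38 CPM in young and 46.1 ± 1.30 CPM in old (SD, n = 3 each). For Afap1 the 5 highest were Stk32c (0.992), Cavin1 (0.991), Pcdh7 (0.991), Hadh (0.989) and Tmtc4 (0.988), of which Cavin1 encodes a coat protein of caveolae. For Afap1l1 they included Bcorl1 (0.986), Sema3d (0.981), Papola (0.980) and Fam199x (0.980). Between the members, r was 0.58 for Afap1 and Afap1l2, -0.35 for Afap1 and Afap1l1 and -0.41 for Afap1l1 and Afap1l2, each over 6 libraries.

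Markers of cell types were read beside these results. Of all genes, 11.5% were lower and 11.2% higher at an unadjusted p under 0.05 in edgeR. DESeq2 called 3.38% lower and 2.30% higher. The smooth muscle markers that define the labelled cells were present, with 14 of 14 in the table and a summed level of 20771 to 34516 CPM in young and 7504 to 11451 CPM in old, and 14 of 14 had a lower level in old (13 at an unadjusted p under 0.05 and 0 called by edgeR, 11 called by DESeq2). Acta2 had 7646 ± 2705 and 1583 ± 556 CPM, Tagln 6147 ± 1327 and 2119 ± 640 CPM and Cald1 4684 ± 728 and 2565 ± 381 CPM (SD, n = 3 each). Fibroblast markers were in the table for 11 of 11 with a summed level of 755 to 1338 CPM in young and 1706 to 2740 CPM in old, and 10 had a higher level in old (0 called by edgeR, 5 at an unadjusted p under 0.05, 3 called by DESeq2). Of the 3 most read, Mfap5 was the marker without a higher level, with 607 ± 126 CPM in young and 544 ± 47.2 CPM in old, while Col14a1 had 148 ± 80.1 and 800.3 ± 281 CPM and Pdgfra 234 ± 77.6 and 464 ± 148 CPM (SD, n = 3 each). Skeletal muscle markers were in the table for 6 of 13, without Myod1, Myog and Ckm, at 175 to 394 CPM in young and 38.9 to 67.3 CPM in old. Of these 6, 5 had a lower level in old and 1 a higher one (3 lower and 1 higher at an unadjusted p under 0.05, 0 called by edgeR, 3 called lower by DESeq2). The most read were Acta1, Myh1 and Myh2, all lower, whereas Tnnt3 had 10.7 ± 2.61 CPM in young and 20.2 ± 8.99 CPM in old, and Des, also on the smooth muscle list, 1.98 ± 0.876 and 1.84 ± 1.34 CPM (SD, n = 3 each). These shifts moved with the difference of Afap1l2, and their part in it was not tested.

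Other cell types left few reads. Endothelial markers were in the table for 7 of 11 at 36.1 to 45.4 CPM in young and 33.0 to 44.4 CPM in old, without Cdh5, Tie1, Emcn and Cldn5, and led by Egfl7, Tek and Erg. Macrophage markers were in the table for 2 of 10, without Ptprc, Adgre1 and Cd163, at 0.407 to 2.90 CPM in young and 1.57 to 2.90 CPM in old, with Csf1r the more read. Schwann cell markers were in the table for 3 of 8, without Sox10, at 13.5 to 75.5 CPM in young and 54.9 to 86.4 CPM in old, most of them from S100b. Of 8 epithelial markers Krt8 was in the table, at 2.36 to 3.23 CPM in young and 3.24 to 3.58 CPM in old, without Epcam and Cdh1. The summed levels of the endothelial, macrophage and Schwann cell lists overlapped between the age groups.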

How the data were processed

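Per the labels and the methods of the study, the authors trimmed paired reads of a stranded library (Cutadapt 3.5, Trim Galore 0.6.7), aligned them with STAR 2.7.10b on Rnor 6.0 and obtained a number per gene from featureCounts (Subread 2.0.8). The deposited values are raw counts, and in each row at least 3 libraries held 10 or more. Settings for strand, multiple mapping and mates were not given in the sources used here. Even numbers made up 68.7% to 71.1% of low counts (1 to 19), as counting both mates would leave, so counts were halved as an alternative.

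All 14475 genes were fitted in R 4.3.3 with edgeR 4.0.16 (TMM, quasi-likelihood F test, Benjamini-Hochberg over all genes, age as the sole term). SE is the absolute log2 fold change over the root of F. DESeq2 1.42.0, limma-voom (limma 3.58.1), other scalings and filters, a replicate block and each library left out were alternatives. Steps were tested on simulated counts. Within age groups Spearman's rho across genes was 0.973 to 0.991, and no library repeated another. The study gives 3 rats per group. How libraries map to rats or cultures is not stated, so p-values measure the spread between these libraries. Correlations used log2 CPM with a prior count of 2.

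The members and lists were chosen with earlier results of these data known. Named genes were the members, in each partner list the 4 with the largest absolute change at an average of at least 1 CPM and any called, in each cell type list the 3 most read, and the 5 genes most like each member. Src, Sh3pxd2a, Cttn, Tnnt3, Des and the neighboring genes were named after their values were seen. A few genes that these rules name are not reported here. Sequences came from RefSeq on GRCr8, with no coordinate carried between builds. Transcript lengths were not used here, so shares and ratios of reads among the members depend on length and are read across libraries only. No column was left unused.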

Additional observations from a re-analysis of the deposited data

How the results depend on the processing

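The log2 fold change of Afap1l2 ranged from -4.04 to -3.60 over 20 alternatives, as a description. The call by which the family was chosen did not arise in limma-voom, with the replicate block or, in edgeR, when young replicate 3 or either of old replicates 2 and 3 was left out. Afap1 stayed lower in 20 of 20 (-0.50 to -0.19) and Afap1l1 higher in 19 of 19 (0.16 to 0.73), and neither was called in any. The summed family CPM had a log2 ratio from -0.82 to -0.54 over 8 alternatives. The sum per kilobase was not run for want of transcript lengths, and the filter at an average of 1 CPM removed Afap1l1. Genes called, 1 in edgeR with all libraries, were 805 with DESeq2, 0 with limma-voom and 0 to 732 in edgeR with a library left out, the 732 without old replicate 1. In DESeq2, added after seeing the data, leaving out young replicates 1, 2 and 3 gave 737, 551 and 600, and old replicates 1, 2 and 3 gave 1377, 614 and 651. Partner genes called, 0 in edgeR with all libraries, were 7 with DESeq2, 0 to 7 in edgeR with a library left out, and in DESeq2 5, 4, 6, 10, 4 and 3 in the same order. The cause was not tested. The labels do not say what a replicate number marks. Deviations of same-numbered libraries correlated at 0.063, 0.322 and 0.313 for numbers 1, 2 and 3. Young replicates 2 and 3 correlated best with their own number and young replicate 1 with old replicate 2 (0.354). With 3 libraries a group, such values cannot decide whether a pairing exists, and the numbers were not taken to pair the libraries. With the number as a block, the log2 fold changes were -3.79 for Afap1l2, -0.39 for Afap1 and 0.38 for Afap1l1, and 1 gene was called, Adamts15, named after its value was seen. Low counts and the spread between libraries go together with the wide intervals of Afap1l1, and the part of each was not tested.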
